A study of Mus musculus with 4 samples.

Results

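The inhibitors of cyclin-dependent kinases (CDKs) were examined in hematopoietic stem cells (HSCs) with and without *Id2*. The 6 genes *Cdkn1a*, *Cdkn1b*, *Cdkn1c*, *Cdkn2a*, *Cdkn2c* and *Cdkn2d* were taken by their gene symbols, as the CIP/KIP family (names beginning with Cdkn1) and 3 members of the INK4 family (names beginning with Cdkn2). Rows were found for 5 of the 6 among 19354 genes, which are all 3 CIP/KIP members and 2 INK4 members. *Cdkn2a* had no row among the values used, nor had *Cdkn2b*, the INK4 gene that was no member, and the level of neither was analysed here. All 5 members with a row passed the filter on low values and were among the 15895 genes tested.

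HSCs were sorted as Lin- Sca1+ c-*Kit*+ (LSK) FLT3- CD48- CD150+ cells, which marks long-term HSCs, from the bone marrow of *Mx1-Cre*; *Id2*+/+ and *Mx1-Cre*; *Id2*fl/fl mice. Mice of both genotypes carried *Mx1-Cre* and were taken 2 weeks after polyinosinic:polycytidylic acid (pIpC), at 8 to 16 weeks of age. The agent pIpC raises interferon, which turns on the *Mx1* promoter and so the Cre recombinase that cuts out the floxed gene (*Id2*Δ/Δ), in HSCs and in other interferon-responsive cells of the mouse. Cells of 14 *Id2*+/+ and 15 *Id2*fl/fl mice were pooled in 2 experiments, and 2 RNA-Seq libraries were made per genotype. The labels do not tie a library to an experiment, and whether the pools of a genotype came from separate mice is not given, so the p-values measure the spread between these libraries, which may be technical. An exact permutation test of 2 libraries against 2 has 6 arrangements, so its two-sided p cannot go below 2 in 6.

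CDK inhibitors bind cyclin-CDK complexes or the CDKs themselves and hold cells before S phase. The CIP/KIP proteins p21, p27 and p57 act mainly on complexes with CDK2, whereas the INK4 proteins p18 and p19 bind CDK4 and CDK6 and keep D-type cyclins away, so that RB proteins stay active and E2F factors stay off. In HSCs, p57 and p27 are known for keeping the cells in G0, p21 is a target of p53 that stops the cycle after stress, and loss of p18 raises HSC self-renewal. ID proteins restrain E proteins, which are transcription factors that act on *Cdkn1a* and other CDK inhibitor genes.

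The values are log2 counts-per-million (CPM), normalized by the authors so that the 4 libraries share 1 distribution. Reads and depths were inferred from the ranks of low values, which gave depths between 14207350 and 18831991 reads. The targeted gene was read first. *Id2*+/+ HSCs had 93 and 98 reads of *Id2*, while none was recovered from either *Id2*Δ/Δ library, where 3 reads, the limit taken for a count of 0, are 0.169 and 0.159 CPM, as the genotypes in the labels say. All 8 HSC markers were present, with a summed level of 4457 and 4372 CPM in *Id2*+/+ and 3033 and 3586 CPM in *Id2*Δ/Δ HSCs. *Kit* had 2159 and 1948 CPM in the first pair and 1170 and 1499 CPM in the second. Transcripts of *Flt3* and *Cd48*, whose proteins the sort excluded, and of *Cd34*, which is low on long-term HSCs, summed to between 367 and 429 CPM, mostly *Cd34*. Megakaryocyte markers, some of which HSCs share, summed to between 411 and 538 CPM, and the 4 of 5 erythroid markers with a row to between 41.1 and 60.1 CPM. The 2 of 4 B cell markers with a row, mostly *Cd79b*, summed to between 33.6 and 51.0 CPM. Of the T cell markers, 0 of 3 had a row.

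No CDK inhibitor was called as different between *Id2*+/+ and *Id2*Δ/Δ HSCs, and none separated the libraries of the 2 genotypes. At an adjusted p under 0.05 (limma, Benjamini-Hochberg), 0 of the 5 members and 0.0% of all tested genes were called, and the smallest adjusted p of any gene was 0.910. *Id2* itself, at a log2 fold change of −7.31, was not called either (adjusted p = 0.910), so the absence of a call does not show that a gene did not differ. At an unadjusted p under 0.05, no member passed and 742 genes did, which are 1.72% of all tested genes with a higher mean and 2.95% with a lower mean after loss of *Id2*. That count rested on the libraries used: it was 196 without *Id2*+/+ library 1, 246 without *Id2*+/+ library 2, 1242 without *Id2*Δ/Δ library 1 and 2516 without *Id2*Δ/Δ library 2. The libraries of the 2 genotypes overlapped for every one of the 5 members, whereas they did not overlap for 19.0% of tested genes in the higher direction and 15.8% in the lower. Of the members, 2 had a higher mean in *Id2*Δ/Δ HSCs (both INK4) and 3 a lower mean (all CIP/KIP), with a median log2 fold change of −0.08, beside 0.01 for all tested genes, and of 0.036 without *Id2*Δ/Δ library 1. In RNA of pooled cells, fewer cells with a transcript and less of it per cell cannot be told apart.

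**Figure D1:**
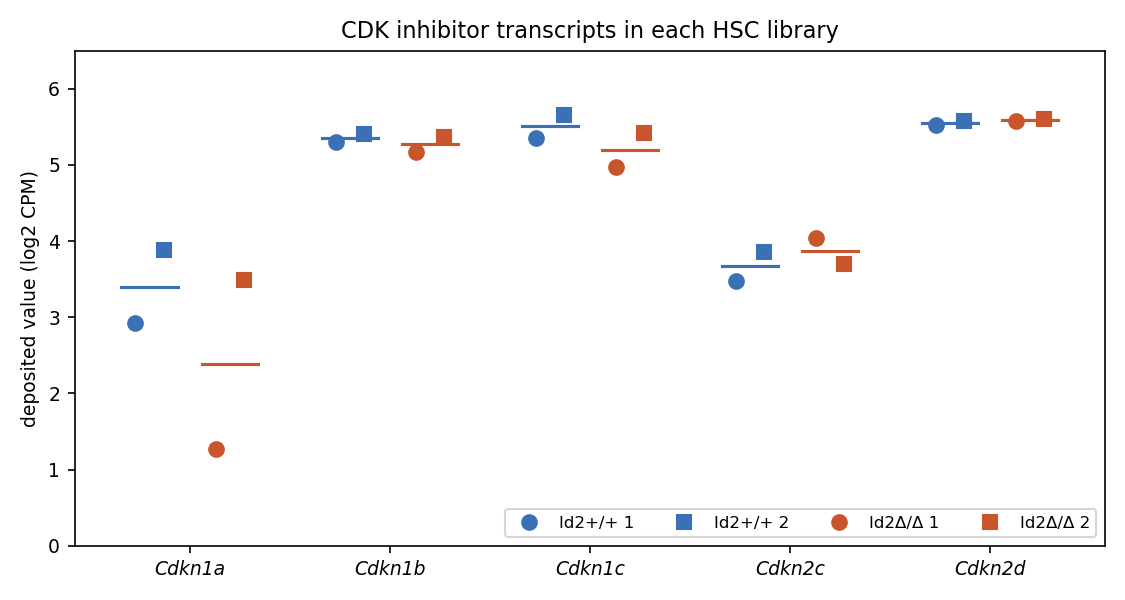
Deposited log2 CPM of the 5 CDK inhibitors with a row in each of the 4 HSC libraries (circles, replicate 1; squares, replicate 2; blue, *Id2*+/+; orange, *Id2*Δ/Δ; bars, group means, n = 2). *Cdkn1a* runs from 1.27 to 3.88 and its *Id2*Δ/Δ replicate 1 lies lowest, while the 4 values of *Cdkn2d* lie between 5.52 and 5.60.

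*Cdkn1a*, which encodes p21, had the widest spread of the 5. It lies on chromosome 17 of GRCm38 at chr17:29090976-29100727 on the plus strand. Its level was 2.92 and 3.88 log2 CPM in the *Id2*+/+ libraries 1 and 2, and 1.27 and 3.49 log2 CPM in the *Id2*Δ/Δ libraries 1 and 2. *Id2*Δ/Δ library 1 was the low one, and *Id2*Δ/Δ library 2 lay between the *Id2*+/+ libraries. The means were 3.40 ± 0.68 and 2.38 ± 1.57 log2 CPM (SD, n = 2 each). The log2 fold change was −1.02 (SE 0.69, 95% interval −2.64 to 0.60, limma adjusted p = 0.910), an interval that holds both 0 and a log2 difference of −2. Leaving out *Id2*Δ/Δ library 1 gave 0.085, and leaving out *Id2*Δ/Δ library 2 gave −2.13 (limma adjusted p = 0.266). The latter passed an unadjusted p under 0.05 and the former turned the direction. Between libraries of the same replicate number, *Cdkn1a* was lower in *Id2*Δ/Δ HSCs both times, by a log2 difference of −1.65 for number 1 and −0.39 for number 2.

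The *Cdkn1a* values lay further apart than counting error. *Cdkn1a* had 110 and 231 reads in *Id2*+/+ and 43 and 205 reads in *Id2*Δ/Δ HSCs, with exact Poisson intervals, which cover counting error only, of 90.4 to 133, 202 to 263, 31.1 to 57.9 and 178 to 235 reads. On the CPM scale, the interval of *Id2*Δ/Δ library 1 ended at 3.26, and the next lowest, that of *Id2*+/+ library 1, began at 6.36. The CPM of *Cdkn1a* was 4.64-fold higher in replicate 2 than in replicate 1 of *Id2*Δ/Δ HSCs and 1.94-fold higher in replicate 2 than in replicate 1 of *Id2*+/+ HSCs. The pooled SD within genotypes was 1.21 on the log2 scale, larger than that of 98.8% of the 2912 genes within 1 log2 unit of its mean level. The neutrophil markers moved between the libraries too: all 7 were present and none was at 0, and their summed level was 141 and 51.9 CPM for *Id2*+/+ and 108 and 25.7 CPM for *Id2*Δ/Δ (libraries 1 and 2), so that replicate 1, low in *Cdkn1a*, was high in the sum of these markers in both genotypes. Their part in the *Cdkn1a* values was not tested.

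**Figure D2:**
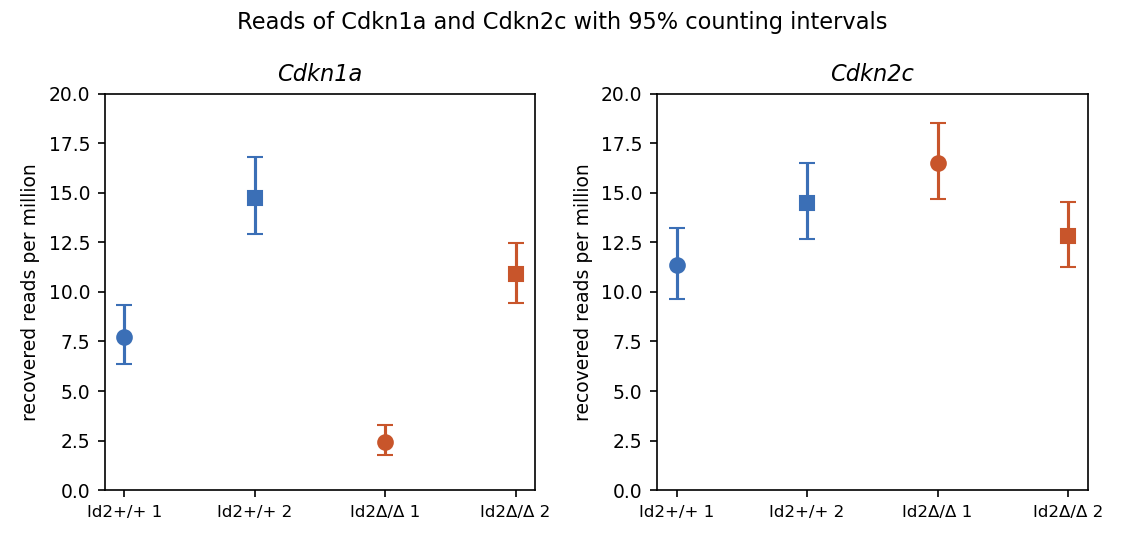
Recovered reads of *Cdkn1a* (left) and *Cdkn2c* (right) in the 4 libraries, divided by the depth to give CPM, with 95% exact Poisson intervals as error bars. For *Cdkn1a* the interval of *Id2*Δ/Δ replicate 1, from 1.75 to 3.26 CPM, touches no other, and for *Cdkn2c* *Id2*Δ/Δ replicate 1 is the highest of the 4.

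The starts of *Cdkn1a* are shown because E proteins and p53 act on this gene. Promoter windows of 250 bases before each start were taken from RefSeq on GRCm38.p6, where 5 of the 6 members had 8 windows and *Cdkn1c* had none. They were searched on both strands for CANNTG (the E-box, which E proteins bind), for ACGTG or GCGTG (the core of the hypoxia response element, which HIF-1 binds) and for CATGNNNNNNCATG (a pair of CATG cores as in p53 response elements). Of all 32851 windows, 66.2% held CANNTG, 38.6% held ACGTG or GCGTG and 0.49% held the CATG pair. CANNTG and ACGTG can overlap, as in CACGTG, and a match is only a match of letters. At the upstream start of *Cdkn1a* (chr17:29090729-29090978, plus strand) and at its downstream start (chr17:29093519-29093768, plus strand), read 5′ to 3′ with the matches in capitals, the windows were as follows.
Cdkn1a upstream start: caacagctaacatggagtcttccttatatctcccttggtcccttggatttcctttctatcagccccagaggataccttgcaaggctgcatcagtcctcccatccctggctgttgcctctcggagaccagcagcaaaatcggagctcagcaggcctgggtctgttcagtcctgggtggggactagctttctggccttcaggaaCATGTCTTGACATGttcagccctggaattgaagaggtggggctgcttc
Cdkn1a downstream start: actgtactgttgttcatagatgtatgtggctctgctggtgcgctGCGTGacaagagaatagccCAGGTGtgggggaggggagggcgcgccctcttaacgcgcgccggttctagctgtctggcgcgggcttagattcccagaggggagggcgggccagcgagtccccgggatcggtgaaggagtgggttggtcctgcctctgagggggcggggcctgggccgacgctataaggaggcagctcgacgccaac
The upstream window held the CATG pair, beginning 48 bases before the start, and none of the other motifs. The downstream window held 1 GCGTG, beginning 206 bases before the start, and 1 CANNTG, beginning 187 bases before it. Which start the reads came from is not known from values per gene.

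Few genes lay close to *Cdkn1a* in profile over the 4 libraries, by a measure that depends on spread. Likeness was measured as the root-mean-square distance between log2 CPM values less the mean of each gene, over the 4 libraries and all tested genes, as a description. Only 2 genes came within 0.1 of *Cdkn1a*. The values were not scaled by spread, so a widely spread member has few genes within 0.1 and a level one has many. The count thus does not say how rare the pattern is. *Meg3*, an imprinted long noncoding RNA, was nearest, at a distance of 0.0139, with 1.12 and 2.09 log2 CPM in *Id2*+/+ and −0.55 and 1.68 log2 CPM in *Id2*Δ/Δ HSCs. *Cxadr*, an adhesion receptor, was next, at a distance of 0.0725. The genes beside *Cdkn1a* did not share its profile. *Trp53cor1*, the p53-induced long noncoding RNA also called lincRNA-p21, ends 11797 bases before *Cdkn1a* and had 2.65 and 2.11 log2 CPM in *Id2*+/+ and 3.20 and 2.75 log2 CPM in *Id2*Δ/Δ HSCs. Its libraries did not overlap between genotypes (log2 fold change 0.59, limma adjusted p = 0.910), and its mean lay on the other side from that of *Cdkn1a*. On the far side, *Rab44*, a large GTPase, had 1.29 and 1.37 log2 CPM in *Id2*+/+ and 0.25 and 0.04 log2 CPM in *Id2*Δ/Δ HSCs, also without overlap (log2 fold change −1.18, limma adjusted p = 0.910).

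*Cdkn1b*, which encodes p27, lies at chr6:134920401-134925513 of GRCm38 on the plus strand and was nearly level. It had 5.30 and 5.40 log2 CPM in *Id2*+/+ and 5.17 and 5.37 log2 CPM in *Id2*Δ/Δ HSCs. The lowest value was again that of *Id2*Δ/Δ library 1, and the groups overlapped. The means were 5.35 ± 0.07 and 5.27 ± 0.14 log2 CPM (SD, n = 2 each), with a log2 fold change of −0.08 (SE 0.17, 95% interval −0.47 to 0.32, limma adjusted p = 0.948). Without *Id2*Δ/Δ library 1 it was 0.019. The interval leaves room for log2 differences of p27 mRNA down to −0.47. Its ends are not a limit of detection, which was not computed. Between libraries of the same replicate number the log2 difference was −0.12 and −0.03. The nearest profiles were those of *Slc24a5* and *Suco*, but 1865 genes came within 0.1 of *Cdkn1b*. The neighbouring *2810454H06Rik*, an antisense RNA, had a log2 fold change of −0.51 without overlap of the libraries, and *Gm44238*, a lincRNA, one of 0.09 with overlap, neither past the adjusted threshold.

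*Cdkn1c*, which encodes p57 and is imprinted, had the second largest difference in means. It lies at chr7:143458339-143461050 of GRCm38 on the minus strand. Its level was 5.35 and 5.66 log2 CPM in *Id2*+/+ and 4.97 and 5.43 log2 CPM in *Id2*Δ/Δ HSCs. *Id2*Δ/Δ library 1 was lowest and *Id2*Δ/Δ library 2 lay between the *Id2*+/+ libraries, as for *Cdkn1a*. With means of 5.51 ± 0.22 and 5.20 ± 0.32 log2 CPM (SD, n = 2 each), the log2 fold change was −0.31 (SE 0.21, 95% interval −0.80 to 0.19, limma adjusted p = 0.910). It was −0.08 without *Id2*Δ/Δ library 1 and −0.53 without *Id2*Δ/Δ library 2 (limma adjusted p = 0.309), the latter past an unadjusted p under 0.05, and between libraries of the same replicate number it was −0.38 and −0.23. The nearest profiles were those of *Cyp51*, an enzyme of cholesterol synthesis, and *Fam120c*, and 237 genes came within 0.1.

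A second gene shares the sequence of *Cdkn1c*. The antisense gene *Gm44732* lies wholly inside *Cdkn1c*, at chr7:143459749-143460640 on the plus strand, and since strand use in the counting is not given, reads of the pair cannot be told apart. *Gm44732* had 3.75 and 3.92 log2 CPM in *Id2*+/+ and 3.42 and 3.55 log2 CPM in *Id2*Δ/Δ HSCs, which did not overlap (log2 fold change −0.35, limma adjusted p = 0.910). Of 9 tested genes of the imprinted *Cdkn1c* domain, 2 were higher and 2 lower without overlap, beside 19.0% and 15.8% of all tested genes. At an unadjusted p under 0.05, 2 were lower, beside 2.95% of all tested genes. None was past the adjusted threshold, and *Ascl2* was under the filter. The median log2 fold change of these 9 genes was 0.00, and it lay between −0.092 and 0.089 without *Id2*Δ/Δ library 2 and 1. *Kcnq1ot1*, the long noncoding RNA that silences *Cdkn1c* on the paternal chromosome, had 9.64 and 9.73 log2 CPM in *Id2*+/+ and 9.52 and 8.54 log2 CPM in *Id2*Δ/Δ HSCs (log2 fold change −0.66, limma adjusted p = 0.910). Here *Id2*Δ/Δ library 2 was the low one, while *Cdkn1c* was lowest in *Id2*Δ/Δ library 1. *Kcnq1*, a potassium channel gene and the nearest gene on that side, had 1.40 and 1.30 log2 CPM in *Id2*+/+ and −0.43 and −0.55 log2 CPM in *Id2*Δ/Δ HSCs (log2 fold change −1.84, limma adjusted p = 0.910). Its values rest on 39 and 39 against 12 and 11 reads. *Kcnq1ot1* lies wholly inside *Kcnq1* on the opposite strand, so reads of that pair cannot be told apart either. *Slc22a18*, the nearest gene on the other side of *Cdkn1c*, had a log2 fold change of 0.14 with overlap. The abundant *Nap1l4* and *Cd81* had log2 fold changes of 0.14 and −0.02.

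Of the INK4 genes, *Cdkn2c*, which encodes p18, lies at chr4:109660876-109667189 of GRCm38 on the minus strand. It had 3.48 and 3.85 log2 CPM in *Id2*+/+ and 4.04 and 3.70 log2 CPM in *Id2*Δ/Δ HSCs, or 161 and 227 against 293 and 241 reads. *Id2*Δ/Δ library 1 was the highest, the opposite of its place for the CIP/KIP genes, and the groups overlapped. The means were 3.67 ± 0.26 and 3.87 ± 0.24 log2 CPM (SD, n = 2 each), and the log2 fold change was 0.20 (SE 0.26, 95% interval −0.41 to 0.82, limma adjusted p = 0.930). Between the libraries of replicate number 1 alone it was 0.56 and between those of replicate number 2 alone −0.15, so the 2 pairs differed in direction, unlike those of the 3 CIP/KIP genes. The nearest profile was that of *Ezh2*, the methyltransferase of Polycomb complex 2, at a distance of 0.0107, followed by *Rad51b*, a DNA repair gene, with 471 genes within 0.1. The neighbouring *9630013D21Rik* and *Faf1* overlapped between genotypes, at log2 fold changes of 0.54 and 0.02.

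*Cdkn2d*, which encodes p19, was the steadiest member. It lies at chr9:21288410-21291407 of GRCm38 on the minus strand. Its level was 5.52 and 5.57 log2 CPM in *Id2*+/+ and 5.57 and 5.60 log2 CPM in *Id2*Δ/Δ HSCs, a range of 0.08 over the 4 libraries. The means were 5.55 ± 0.04 and 5.59 ± 0.02 log2 CPM (SD, n = 2 each), with a log2 fold change of 0.04 (SE 0.15, 95% interval −0.31 to 0.39, limma adjusted p = 0.972). Its pooled SD within genotypes was 0.03 on the log2 scale, and 2.62% of the 5576 genes within 1 log2 unit of its mean had a smaller one. In comparison, that share was 27.4% for *Cdkn1b*, 81.2% for *Cdkn1c* and 50.9% for *Cdkn2c*, each among genes of its own level. *Brd2* and *Fam102a* were nearest in profile, among 2807 genes within 0.1. The genes beside it were not all as steady: *Kri1*, 441 bases away, had a log2 fold change of 0.15 with overlap, whereas *Ap1m2*, 2868 bases away on the other side, had 1.76 and 1.68 log2 CPM in *Id2*+/+ and 3.45 and 2.51 log2 CPM in *Id2*Δ/Δ HSCs (log2 fold change 1.26, limma adjusted p = 0.910).

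The window at the start of *Cdkn2d* is shown as that of the steadiest member, and the one at the downstream start of *Cdkn2c* as the only window of a member with a row that held 2 hypoxia response element cores. They lie at chr9:21291210-21291459 and chr4:109665373-109665622, both on the minus strand and read 5′ to 3′ on it, with the matches in capitals.
Cdkn2d: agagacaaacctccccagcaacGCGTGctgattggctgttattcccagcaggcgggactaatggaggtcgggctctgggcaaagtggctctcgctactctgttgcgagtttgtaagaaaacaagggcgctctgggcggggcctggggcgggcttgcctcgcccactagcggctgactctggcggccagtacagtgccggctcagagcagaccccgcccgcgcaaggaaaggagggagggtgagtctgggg
Cdkn2c downstream start: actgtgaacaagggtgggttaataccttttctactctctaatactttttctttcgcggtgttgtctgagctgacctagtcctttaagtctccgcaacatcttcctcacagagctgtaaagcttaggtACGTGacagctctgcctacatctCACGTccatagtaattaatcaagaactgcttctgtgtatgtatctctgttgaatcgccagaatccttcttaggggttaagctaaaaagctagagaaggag
The *Cdkn2d* window held 1 match to ACGTG or GCGTG, beginning 228 bases before the start, and the *Cdkn2c* window 2, beginning 123 and 100 bases before it; a match to the other strand is printed as its reverse complement, CACGT or CACGC. Neither held CANNTG or the CATG pair. The upstream start of *Cdkn2c* and the start of *Cdkn1b* each had 1 match to ACGTG or GCGTG and none to CANNTG. Of the 8 windows of the members, those of *Cdkn2a* included, 1 held CANNTG, the downstream one of *Cdkn1a*, beside 66.2% of all windows. A window of *Cdkn2a*, which had no row, held 4 matches to ACGTG or GCGTG. That these letters are absent from a window says nothing of what binds elsewhere near the gene.

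**Figure D3:**
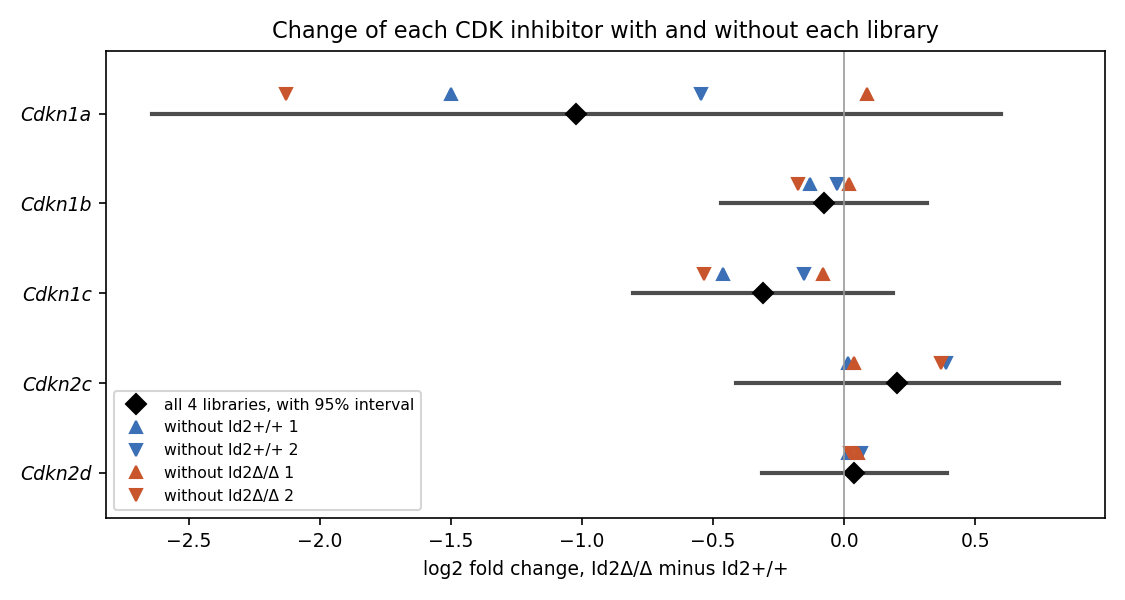
Log2 fold change of each CDK inhibitor, *Id2*Δ/Δ minus *Id2*+/+ (diamonds, all 4 libraries with 95% limma interval; triangles, fits that leave out 1 library, drawn above the line). All 5 intervals span 0, and the values of *Cdkn1a* run from −2.13 to 0.085 as 1 library is left out.

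The library called *Id2*Δ/Δ 1 stood at an end of the range for 4 of the 5 members. It was lowest for *Cdkn1a*, *Cdkn1b* and *Cdkn1c* and highest for *Cdkn2c*, while for *Cdkn2d* the highest was *Id2*Δ/Δ library 2. Over all tested genes it was lowest for 30.2% and highest for 33.2%, more than any other library at either end. Its correlation with *Id2*Δ/Δ library 2 across genes, which are not independent replicates, was 0.942, beside 0.972 between the *Id2*+/+ libraries. Replicate 2 was higher than replicate 1 in both genotypes for 4 of the 5 members, all but *Cdkn2c*, and for 23.9% of all tested genes. The deviations of the 5 members from their means are thus not 5 separate observations.

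Per length of transcript, the order of the members was nearly the same in each library. CPM was divided by the kilobases of the longest transcript in GENCODE M21. Averaged over the 4 libraries, *Cdkn2d* was highest at 33.4 CPM per kb, followed by *Cdkn1c* at 21.8, *Cdkn1b* at 8.74, *Cdkn2c* at 5.57 and *Cdkn1a* at 4.32 CPM per kb. *Cdkn2d* ran from 32.3 to 34.2, *Cdkn1c* from 16.5 to 26.6 and *Cdkn1b* from 7.94 to 9.29 CPM per kb, ranges that did not meet. *Cdkn2c*, from 4.52 to 6.65 CPM per kb, and *Cdkn1a*, from 1.16 to 7.08 CPM per kb, overlapped and could not be ordered. With the union of all exons as the length, the order of the means was the same. Thus, by these lengths, p19 and p57 mRNA led in HSCs of both genotypes, and p21 mRNA was low. In CPM, with no length, *Cdkn1b* ran from 36.1 to 42.3, *Cdkn2d* from 46.0 to 48.7 and *Cdkn1c* from 31.4 to 50.6, which met both. The place of p57 above p27 thus rests on the lengths, and which transcripts were expressed is not known from values per gene.

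Added up, the 5 inhibitors came to 145 and 170 CPM in *Id2*+/+ and 134 and 157 CPM in *Id2*Δ/Δ HSCs, ranges that overlapped, with a ratio of the means of 0.925. The CIP/KIP genes summed to 87.8 and 108 CPM in *Id2*+/+ and 69.9 and 95.5 CPM in *Id2*Δ/Δ HSCs, a ratio of 0.847, and the INK4 genes to 57.2 and 62.1 CPM in *Id2*+/+ and 64.0 and 61.7 CPM in *Id2*Δ/Δ HSCs, a ratio of 1.05. Both sums overlapped between genotypes. By CPM per kb, *Cdkn2d* made up 45.8 and 40.7% of the summed level in *Id2*+/+ and 50.9 and 44.7% in *Id2*Δ/Δ HSCs. *Cdkn1a* made up 5.17 and 8.60% in *Id2*+/+ and 1.77 and 7.04% in *Id2*Δ/Δ HSCs. Shares add up to the whole, so a lower share of 1 member raises those of the others. In *Id2*Δ/Δ library 1 the shares of *Cdkn1a* and *Cdkn1c* (25.1%) were the lowest of the 4 libraries. Those of *Cdkn2d* (50.9%) and *Cdkn2c* (10.1%) were the highest. The level of *Cdkn2d* itself was 33.5 CPM per kb there, below the 34.2 CPM per kb of *Id2*Δ/Δ library 2.

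**Figure D4:**
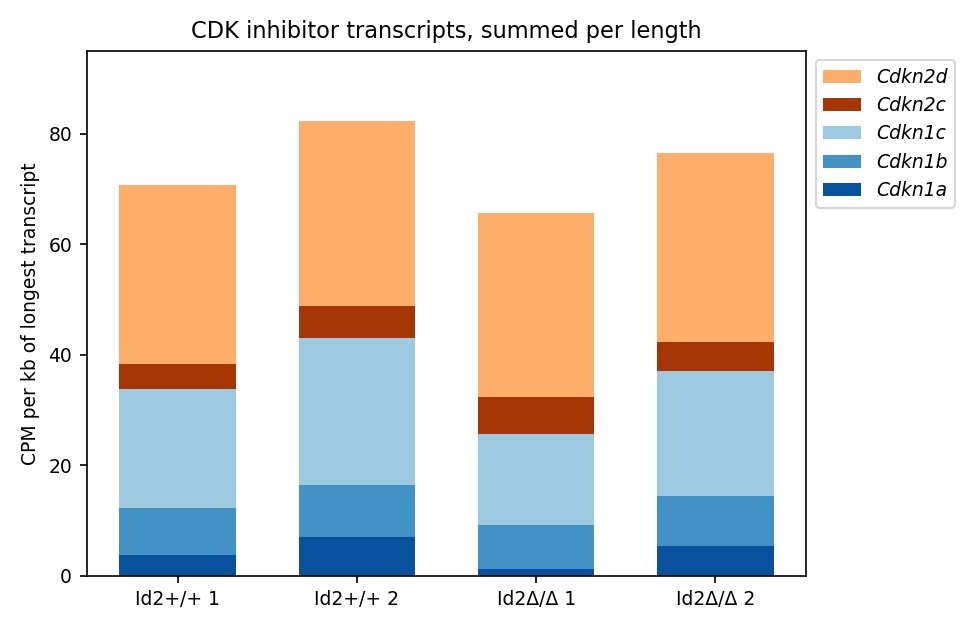
CPM per kb of longest transcript of the 5 CDK inhibitors, stacked, in each library. The 4 stacks reach 70.6, 82.3, 65.7 and 76.5 CPM per kb from left to right, and *Cdkn2d* takes the most in each.

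The genes around the inhibitors were read from 8 lists. No gene of any list passed the adjusted threshold. The counts of each list stand beside those of all tested genes, with 19.0% higher and 15.8% lower without overlap. At an unadjusted p under 0.05, 1.72% of all tested genes were higher and 2.95% lower. Of the 10 tested cyclins and CDKs, the targets of the inhibitors, 9 had a higher mean in *Id2*Δ/Δ HSCs, beside 8222 of all 15895 tested genes, and 4 were higher and 0 lower without overlap, beside 19.0% and 15.8% of all tested genes. The median log2 fold change was 0.13, and it was 0.24 without *Id2*+/+ library 2 and 0.25 without *Id2*Δ/Δ library 2. *Ccna2*, the S phase cyclin, was the 1 that passed an unadjusted p under 0.05. It had 6.53 and 6.78 log2 CPM in *Id2*+/+ and 6.92 and 7.22 log2 CPM in *Id2*Δ/Δ HSCs (log2 fold change 0.42, limma adjusted p = 0.910). The abundant partners of the INK4 proteins overlapped between genotypes, with log2 fold changes of 0.09 for *Ccnd2*, 0.06 for *Cdk4* and −0.07 for *Cdk6*. *Ccna1* had no row.

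RB proteins and E2F factors, which act below the CDKs, were split, with 7 of 13 higher in the mean, 2 higher and 2 lower without overlap, and a median of 0.04, which was −0.027 without *Id2*+/+ library 1, 0.098 without *Id2*Δ/Δ library 1 and −0.0024 without *Id2*Δ/Δ library 2. *E2f2*, an activating E2F, had 3.32 and 2.81 log2 CPM in *Id2*+/+ and 3.69 and 4.05 log2 CPM in *Id2*Δ/Δ HSCs (log2 fold change 0.81, limma adjusted p = 0.910). The 3 most abundant of the list, *Rbl2*, *Tfdp1* and *Tfdp2*, had log2 fold changes of −0.08, 0.14 and −0.18. Of 14 genes for the turnover of CIP/KIP proteins, 9 were higher in the mean, 4 higher and 2 lower without overlap, and the median was 0.13. That median came close to 0 in 3 of the 4 fits that left out 1 library, at −0.028 without *Id2*+/+ library 1, 0.012 without *Id2*Δ/Δ library 1 and 0.023 without *Id2*Δ/Δ library 2. *Cks1b*, the cofactor with which SKP2 marks p27 for degradation, had 5.80 and 5.85 log2 CPM in *Id2*+/+ and 6.21 and 6.15 log2 CPM in *Id2*Δ/Δ HSCs (log2 fold change 0.36, limma adjusted p = 0.910). *Rbx1*, the RING subunit of cullin ligases, likewise had a log2 fold change of 0.36 (limma adjusted p = 0.910). *Skp1a*, *Cul1* and *Ddb1*, the most abundant, overlapped at log2 fold changes of 0.17, −0.12 and −0.10. Protein levels of the inhibitors were not measured in these files.

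The transcription regulators of CIP/KIP genes showed no common direction, with 8 of 13 higher in the mean and a median of 0.06, which was −0.055 without *Id2*+/+ library 1. Without overlap, 3 were higher and 3 lower, beside 19.0% and 15.8% of all tested genes. *Foxo1*, which activates *Cdkn1a* and *Cdkn1b*, had 5.92 and 5.63 log2 CPM in *Id2*+/+ and 5.05 and 5.47 log2 CPM in *Id2*Δ/Δ HSCs (log2 fold change −0.52, limma adjusted p = 0.910), and it too was lowest in *Id2*Δ/Δ library 1. *Trp53*, which encodes p53, was at 8.81 and 8.83 against 8.86 and 8.96 log2 CPM, a log2 fold change of 0.09. *Myc*, a repressor of *Cdkn1a*, had a log2 fold change of 0.22, and the E protein genes *Tcf4*, *Tcf3* and *Tcf12* had 0.06, −0.17 and −0.30, the last without overlap of the libraries (*Tcf3* and *Tcf12*, outside the naming rule, were added after their values were seen). Of 17 regulators of INK4 genes, mainly Polycomb proteins, 7 were higher in the mean, 2 higher and 3 lower without overlap, none passed an unadjusted p under 0.05, and the median was −0.02, with values from −0.19 without *Id2*Δ/Δ library 2 to 0.058 without *Id2*Δ/Δ library 1. The most abundant, *Cbx7*, *Suz12* and *Dmtf1*, had log2 fold changes of −0.11, 0.09 and 0.10.

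Among 5 tested other inhibitors of CDK activity, 2 were higher in the mean, both without overlap, and the median was −0.02, with values from −0.15 without *Id2*+/+ library 1 to 0.16 without *Id2*Δ/Δ library 1. *Cdkn3*, a phosphatase of CDKs whose mRNA is made in G2 and M phase, had 2.87 and 2.66 log2 CPM in *Id2*+/+ and 3.76 and 3.39 log2 CPM in *Id2*Δ/Δ HSCs (log2 fold change 0.81, limma adjusted p = 0.910). It shares the prefix but not the family of the members. *Cdk2ap1* had a log2 fold change of 0.14, and the CDK1 kinases *Wee1* and *Pkmyt1* had −0.19 and −0.11. Proliferation genes were set beside the inhibitors as a readout of cycling. Of the 13, 11 were higher in the mean, 8 were higher and 0 lower without overlap, 3 passed an unadjusted p under 0.05, and the median was 0.14, with values from 0.074 without *Id2*+/+ library 1 to 0.23 without *Id2*+/+ library 2. These 3 were *Top2a*, *Ccnb1* and *Ccnb2*, with log2 fold changes of 0.34, 0.50 and 0.53 (limma adjusted p = 0.910 for each). *Ccnb1*, the mitotic cyclin, had 5.83 and 5.70 log2 CPM in *Id2*+/+ and 6.30 and 6.23 log2 CPM in *Id2*Δ/Δ HSCs. The most abundant, *Mki67*, *Mcm3* and *Mcm6*, had log2 fold changes of 0.18, 0.14 and −0.01. The share of genes without overlap in 1 direction was higher in this list than the 19.0% of all tested genes, but the genes of a list are not independent and no test of the list was made. The list was also chosen with earlier results of these data known, so its share is a description only.

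**Figure D5:**
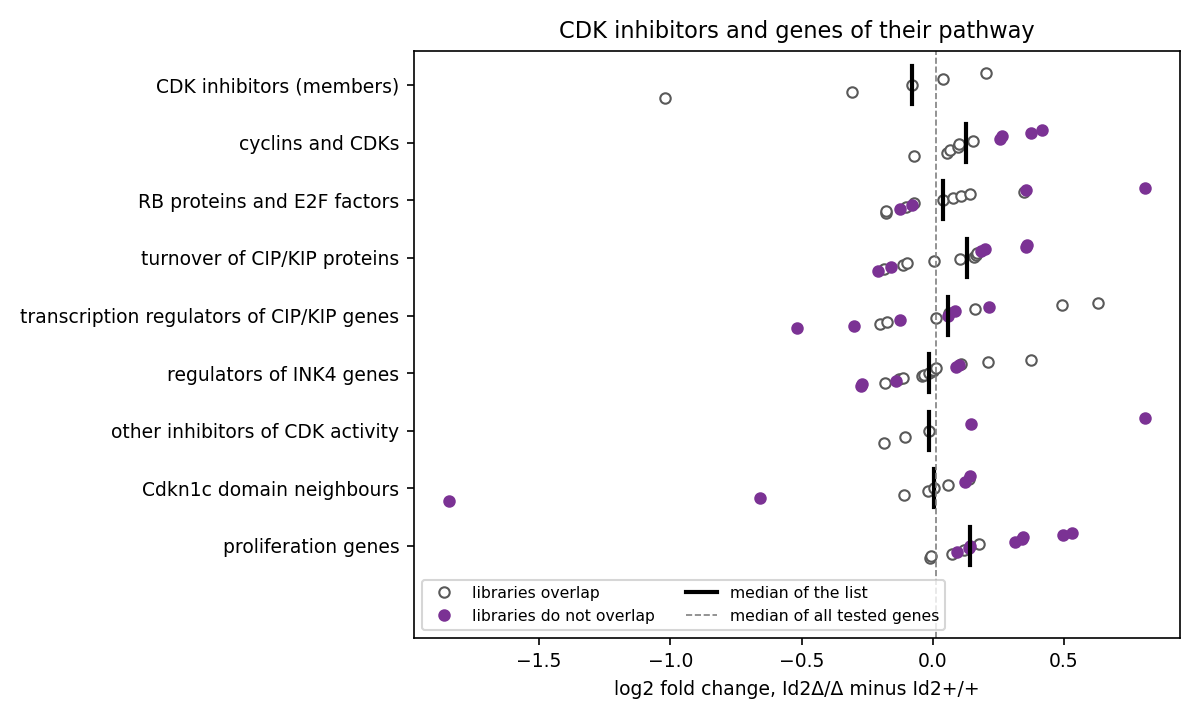
Log2 fold change, *Id2*Δ/Δ minus *Id2*+/+, of each tested gene of the CDK inhibitors and of the 8 lists (filled, libraries do not overlap between genotypes; open, they overlap; black bar, median of the list; dashed line, median of all tested genes). The 5 inhibitors are all open, and the proliferation genes and the cyclins and CDKs lie mostly to the right of 0.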

How the data were processed

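RNA-Seq libraries of sorted HSCs, 2 per genotype, were analysed. The authors deposited log2 CPM values of 19354 genes; all 4 columns have a median of 3.92, as after quantile normalization. The submitters' processing notes name CASAVA 1.8.4, Trimmomatic 0.30, TopHat2 2.0.8, RSEM and STAR and the builds mm9 and NCBIM37, with no order or role, and how shared or overlapping reads were counted is not given. The log2 values entered the test unchanged. The 15895 genes averaging 1 CPM or more were fitted in limma 3.58.1 (R 4.3.3; lmFit, then eBayes with trend; no covariate beside genotype; two-sided p-values, Benjamini-Hochberg over all tested genes), which was tested on simulated data. Below 32 CPM, the rank of a distinct value in a library gave its reads, and depths followed from these. Both are thus inferred from normalized values, and the Poisson intervals rest on them. The lowest value of *Id2*Δ/Δ library 1 was −4.25 log2 CPM, above the −5.15 log2 CPM that its inferred depth gives for a gene without reads. Coordinates and lengths were looked up by Ensembl gene ID in GENCODE M21 (GRCm38), which holds 99.7% of the IDs, and the build of the counts may differ. The members and lists were chosen with earlier results of these data known. Named from each list were the genes with an unadjusted p under 0.05 and no overlap and the 3 most abundant, and besides these the 2 nearest profiles and the nearest genes on each side of each member; not all are reported with every value. Alternatives varied pseudocount, filter, scaling, trend, replicate block and the libraries used. A correction for transcript length was chosen after seeing the data.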

Additional observations from a re-analysis of the deposited data

How the results depend on the processing

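With 2 libraries per genotype, the interval of *Cdkn1a* reaches past a log2 difference of −2, and members above 32 CPM have no recovered reads. Of 74 values of the 5 members under the alternatives, 70 kept their direction and their side of the threshold, 0 had an adjusted p under 0.05, and 3 reversed. Without *Id2*Δ/Δ replicate 1, the log2 fold change became 0.085 for *Cdkn1a* and 0.019 for *Cdkn1b*. Leaving out 1 library in turn gave −2.13 to 0.085 for *Cdkn1a*, −0.18 to 0.019 for *Cdkn1b*, −0.53 to −0.08 for *Cdkn1c*, 0.02 to 0.39 for *Cdkn2c* and 0.01 to 0.06 for *Cdkn2d*. *Cdkn2c* moved to 0.56 between the libraries of replicate number 1 alone and reversed to −0.15 between those of number 2 alone. The causes were not tested. *Cdkn1a* had no value at a mean of at least 10 CPM, being under that filter.

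No gene was called under any alternative but the replicate block, where 1 was (*C130089K02Rik*), and at an unadjusted p under 0.05 the count was 742, or 196 to 2516 as 1 library was left out. The labels do not say that a replicate number marks a shared batch, and deviations of same-numbered libraries correlated at 0.0592 across all tested genes and at 0.144 across the 7377 genes of at least 32 CPM, so whether the numbers pair the libraries is not settled and they were not treated as pairs. With the replicate block, the log2 fold change of *Cdkn1a* was the same −1.02 with an SE of 0.39 (limma adjusted p = 0.800), past an unadjusted p under 0.05; so was *Cdkn1a*, and *Cdkn1c* too, without *Id2*Δ/Δ replicate 2. The summed level of the 5 inhibitors had a ratio of 0.851 to 1.00 as 1 library was left out, and 0.917 with median-ratio scaling, and of 45 list medians under alternatives 14 moved by more than 1 SD, among them that of the turnover of CIP/KIP proteins in 3 of 4 fits.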
